A study of Mus musculus with 8 samples.

Results

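Summits of chromatin accessibility were compared between 2 libraries of the mouse acute myeloid leukaemia line AML246, both taken after 12 days on doxycycline (Dox, 0.1 µg/mL): viable cells sorted as CD11b-high, and total viable cells. Cells were kept in 10% FCS in IMDM with IL-3, and the titles call addition of Dox PU.1 restoration and its withdrawal PU.1 knockdown. The series held 8 libraries, 1 per group, the other 6 being total viable cells: untreated at day 0, on Dox at day 4 and day 8, and withdrawn from it for 4, 8 or 12 days. The total viable cells were not described as depleted of CD11b-high cells, and the sources used here do not give the share of CD11b-high cells among them. With 1 library on each side there was no spread between replicates, so the values describe these 2 libraries and no p-value is given.

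The deposited lists gave 1 base per peak, its summit, with a score, the authors' own value, taken here for −log10 of either a p-value or a q-value. Summits on chromosomes 1 to 19, X and Y with a score of at least 10 were widened by 150 bp on both sides and merged over both lists. Of 38473 regions formed in this way over all 8 libraries together, the 2 day 12 lists alone formed 19925. Of these 19925 regions, 3227 (16.2%) held a summit of the CD11b-high list only, 2959 (14.9%) a summit of the total list only and 13739 (69.0%) a summit of both. The lists were of like length, with 36300 summits in CD11b-high cells and 35201 in total cells, of which 17005 and 16741 reached a score of 10. The sources used here do not give the read depth, and its part in any difference between the lists was not tested.

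CD11b is the αM chain of Mac-1, a β2 integrin with which monocytes, macrophages and neutrophils adhere and take up opsonised particles; it is encoded by Itgam and pairs with CD18, encoded by Itgb2. PU.1, encoded by Spi1, is an ETS-family factor that binds purine-rich elements with a GGAA core and takes part in opening the enhancers of myeloid genes, Itgam among them. High surface CD11b is used to mark myeloid cells that have moved towards the monocyte or granulocyte fate. ATAC-seq reads where a transposase can reach the DNA, so it reports open promoters and enhancers, not the amount of surface protein.

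The promoters of 6 genes are shown because the 2 lists parted there or because the gene is the sorted marker; they were picked after the values were seen. They come from RefSeq for GRCm38.p6, the assembly also called mm10, and run from 250 bases before to 50 bases after a transcription start, in the direction of the gene. Capitals mark a match to GAGGAAG, a PU.1-type ETS motif, or to AGATAA, a motif of GATA factors, on either strand, so that the ETS motif on the opposite strand reads CTTCCTC and the GATA motif reads TTATCT. Itgam (chr7:128062390-128062689, plus strand) is the gene of the sorted marker. Fcgr1 (chr3:96293920-96294219, minus strand) and Junb (chr8:84978699-84978998, minus strand) held a summit of at least 10 in the CD11b-high list only. Gse1 (chr8:120537159-120537458, plus strand) belonged to one of the 2 genes with 6 CD11b-high-only and 0 total-only regions. Nlrp3 (chr11:59541319-59541618, plus strand) and Sema4d (chr13:51756634-51756933, minus strand) held one in the total list only.
Itgam: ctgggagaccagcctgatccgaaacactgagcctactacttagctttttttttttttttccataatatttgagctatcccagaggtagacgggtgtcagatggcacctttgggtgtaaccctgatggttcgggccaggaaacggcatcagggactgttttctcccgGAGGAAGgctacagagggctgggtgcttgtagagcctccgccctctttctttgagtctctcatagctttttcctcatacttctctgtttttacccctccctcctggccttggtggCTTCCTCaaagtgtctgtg
Fcgr1: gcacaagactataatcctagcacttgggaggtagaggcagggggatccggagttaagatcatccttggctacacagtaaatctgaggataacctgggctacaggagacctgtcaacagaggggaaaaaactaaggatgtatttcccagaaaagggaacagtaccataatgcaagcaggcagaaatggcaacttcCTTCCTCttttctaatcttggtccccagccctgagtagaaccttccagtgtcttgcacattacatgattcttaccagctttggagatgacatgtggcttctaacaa
Junb: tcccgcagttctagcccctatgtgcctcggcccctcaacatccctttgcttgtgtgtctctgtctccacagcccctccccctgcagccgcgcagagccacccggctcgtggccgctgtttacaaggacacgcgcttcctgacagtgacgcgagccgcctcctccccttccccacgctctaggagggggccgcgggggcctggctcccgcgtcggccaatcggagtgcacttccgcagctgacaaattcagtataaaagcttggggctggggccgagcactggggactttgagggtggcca
Gse1: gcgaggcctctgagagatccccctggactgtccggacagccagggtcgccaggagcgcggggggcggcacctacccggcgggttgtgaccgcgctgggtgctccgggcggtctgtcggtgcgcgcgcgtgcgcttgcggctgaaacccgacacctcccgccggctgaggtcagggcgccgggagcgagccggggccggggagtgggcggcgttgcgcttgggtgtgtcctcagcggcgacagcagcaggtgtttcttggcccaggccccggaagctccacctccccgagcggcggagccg
Nlrp3: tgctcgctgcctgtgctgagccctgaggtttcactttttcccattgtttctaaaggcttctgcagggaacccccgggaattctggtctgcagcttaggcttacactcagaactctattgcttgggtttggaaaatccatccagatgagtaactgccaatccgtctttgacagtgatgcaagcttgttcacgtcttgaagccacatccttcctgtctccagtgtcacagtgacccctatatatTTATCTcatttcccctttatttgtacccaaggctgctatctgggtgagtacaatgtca
Sema4d: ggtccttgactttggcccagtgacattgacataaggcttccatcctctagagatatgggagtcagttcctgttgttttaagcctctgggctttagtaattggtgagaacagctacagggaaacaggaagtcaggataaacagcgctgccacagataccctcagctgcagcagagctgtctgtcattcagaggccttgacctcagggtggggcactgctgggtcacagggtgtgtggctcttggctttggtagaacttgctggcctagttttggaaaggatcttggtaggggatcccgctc

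The 2 libraries of day 12 shared most of their regions, and what they did not share was split almost evenly. CD11b-high-only regions made up 16.2% of the 19925 regions (95% Clopper-Pearson interval 15.7 to 16.7%) and total-only regions 14.9% (14.4 to 15.4%). The CD11b-high list was the longer one at this score, and with its summits taken from the top down to the number in the total list the counts were 3068 CD11b-high-only, 3061 total-only and 13637 shared regions. Lists of equal length nearly fix these 2 single-list counts to the same number, since each shared region takes summits from both lists. The near-even split thus largely restates the list lengths and is not a result about the cells. Shared regions made up 69.0% (68.3 to 69.6%). Intervals throughout stand for counting error alone; regions next to each other are not independent of each other. Among the 28 pairs that can be formed from the 8 libraries, this pair had the largest shared percentage at scores of at least 10. With every summit counted, 64.9% of its regions were shared and it came second, after day 0 with 8 days off Dox at 65.2%. For comparison, CD11b-high cells shared 57.9% of regions with total cells of day 8, and total cells of day 12 shared 57.2% with them. With total cells of day 0, CD11b-high cells shared 53.9% and total cells of day 12 shared 53.4%. Unlike list lengths lower a shared percentage: 17005 and 16741 summits reached a score of 10 in the day 12 lists, but 26344 at day 8. By number, CD11b-high cells shared 15867 regions and total cells of day 12 shared 15648 with day 8, against 13739 with each other. The rank thus depends on list length and does not show which libraries are most alike.

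Most single-list regions had a summit of the other list nearby, below the score that counted. In 2195 CD11b-high-only regions (68.0%, 66.4 to 69.6%) and 2039 total-only regions (68.9%, 67.2 to 70.6%) the other list had a summit under 10 inside the same region and none of at least 10 within 1 kb. Those summits had a median score of 7.59 in the total list and 7.60 in the CD11b-high list, while the median own scores of the regions were 12.3 and 12.1. A further 671 CD11b-high-only regions (20.8%) and 623 total-only regions (21.1%) lay within 1 kb of a summit of at least 10 of the other list, at a median distance of 426 bp and 412 bp. The regions with no summit of the other list of any score within 1 kb numbered 182 among CD11b-high-only regions (5.64%, 4.87 to 6.49%) and 158 among total-only regions (5.34%, 4.56 to 6.21%). They were 0.913% and 0.793% of all 19925 regions.

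**Figure D1:**
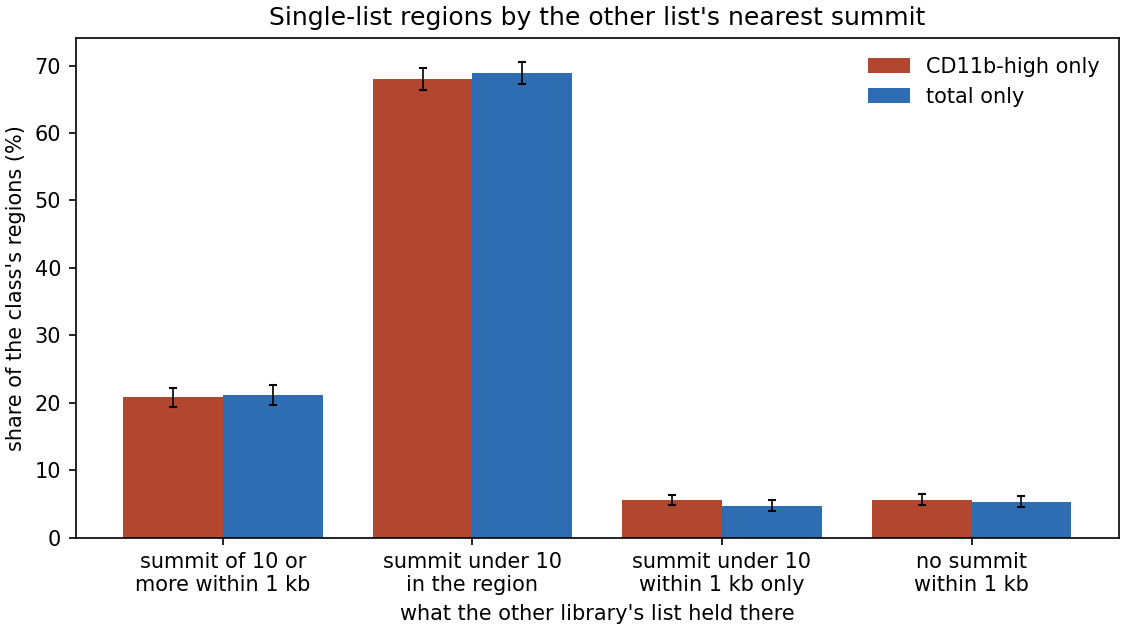
Percentage of CD11b-high-only regions (red) and total-only regions (blue) by what the other library's list held there; error bars are 95% Clopper-Pearson intervals. In both classes the bar for a summit under 10 in the same region stands highest, at 68.0% and 68.9%, and the bar for no summit within 1 kb stands at 5.64% and 5.34%.

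The scores lay near the threshold for a part of these regions. In 659 CD11b-high-only and 752 total-only regions the own score was between 10 and 11, and in 479 and 478 of the regions just described the other list's score was between 9 and 10; both held in 71 and 118. Single-list regions reaching an own score of 20 numbered 278 in CD11b-high cells and 234 in total cells. Of these, 2 in CD11b-high cells and 0 in total cells had no summit of the other list within 1 kb. Shared regions had median scores of 21.7 in the CD11b-high list and 20.7 in the total list, against 12.5 for the own score of either single-list class. Over the 13739 shared regions the scores of the 2 lists had a Spearman rho of 0.806, given as a description across regions, which share their libraries and are not independent.

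**Figure D2:**
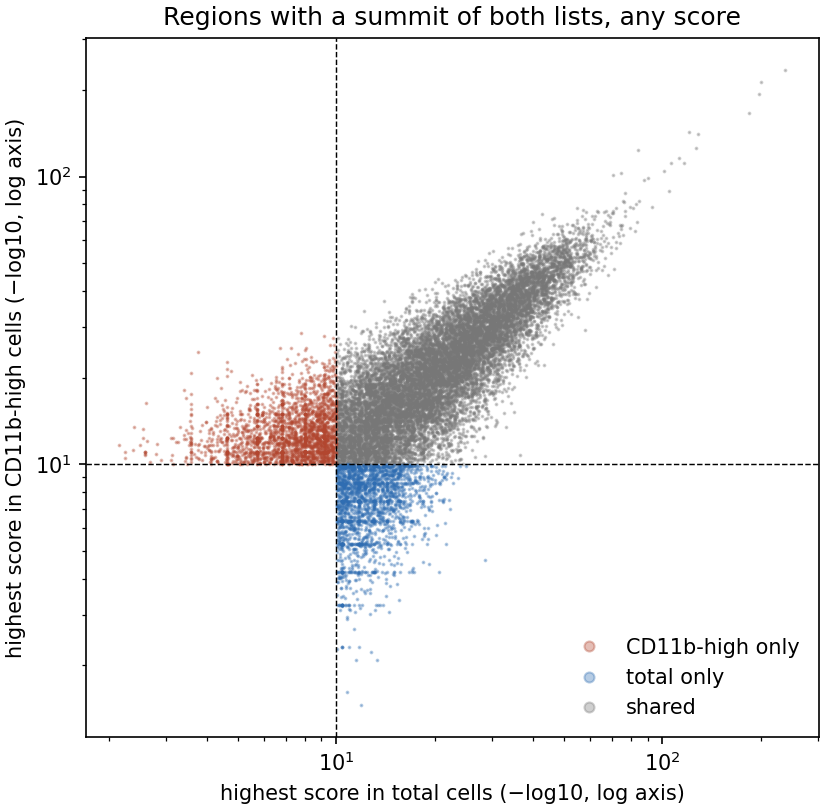
Highest score in the CD11b-high list (vertical, −log10, log axis) against the highest score in the total list (horizontal, −log10, log axis) for each region with a summit of both; dashed lines mark a score of 10. Grey shared regions form 1 band along the diagonal, and the CD11b-high-only (red) and total-only (blue) regions continue that band past the dashed lines.

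The highest-scored single-list regions of both lists were placed beside each other. The 8 CD11b-high-only regions with the highest scores lay at Myo3a (66.2), B3glct (60.3), Ascc3 (53.9), Paics (53.1), Zfp619 (51.1), Higd1a (50.9), LOC108167320 (48.0) and Zbtb2 (47.2). The 8 total-only regions with the highest scores lay at Myo3a (60.7), Ascc3 (51.1), Gm33989 (51.1), Zfp619 (48.2), B3glct (47.5), Higd1a (45.7), Immt (43.6) and Ensa (43.1). Each of them had a summit of at least 10 of the other list within 1 kb. At Higd1a, which encodes a mitochondrial protein of the hypoxia response, the CD11b-high summit scored 50.9 in chr9:121857494-121857794 and the total summit 45.7 in chr9:121857861-121858161. The other libraries used either position there: day 0, 8 days off and 12 days off had a summit in the first region, and day 4, day 8 and 4 days off in the second. Such pairs at 1 place give a CD11b-high-only and a total-only region at once, as they also did at Cd34, Flt3, Egr1 and Atf3.

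The locus of the sorted marker held no region at a score of 10 in either list. At any score, Itgam (chromosome 7, 128062640 to 128118491) had 2 CD11b-high-only summits with scores of 4.01 and 5.27, the second 3191 bp inside the gene. The total list had a summit of its own at the transcription start, with a score of 4.36 and no CD11b-high summit within 1 kb. In the promoter printed above, GAGGAAG lay 84 bases before the start and, on the opposite strand, 31 bases after it. A region 11753 bp before the gene held a summit in every library, with scores of 8.03 in CD11b-high cells and 8.93 in total cells of day 12. In the same region the other 6 lists scored 20.2 at day 0, 17.9 at day 4, 27.3 at day 8, and after withdrawal 31.9, 39.1 and 22.7 at 4, 8 and 12 days. Both day 12 lists missed the threshold there and the other 6 passed it, so no call at this score set CD11b-high apart from total cells at Itgam.

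Itgb2, whose product pairs with CD11b, and Itgax and Itgal, whose products are other α chains that pair with CD18, had regions in the CD11b-high list that missed the threshold in the total list. Itgb2, the common β2 chain, had 2 CD11b-high-only, 0 total-only and 2 shared regions. The CD11b-high-only region 6682 bp inside Itgb2 (chr10:77536861-77537161) scored 17.1 in CD11b-high cells and 6.16 in total cells; it scored 11.0 at day 4, 5.68 at day 8 and 3.65 at 4 days off, and had no summit at day 0 or at 8 and 12 days off. The other lay 65 bp from one end of the gene (chr10:77530244-77530544), with 10.8 in CD11b-high cells and 4.55 in total cells, within 1 kb of a shared region with 13.5 and 25.9. Itgax, which encodes the CD11c chain found on dendritic cells and macrophages, had 1 CD11b-high-only region (chr7:128133686-128133986) with 13.2 in CD11b-high cells and 8.86 in total cells. Itgal, which encodes the CD11a chain of LFA-1, had 1 CD11b-high-only region 110 bp from one end of the gene with 12.1 in CD11b-high cells and 7.02 in total cells, and 1 shared region with 16.3 and 12.3. Every one of these 4 CD11b-high-only regions also held a summit of the total list below 10. Counted at any score, all 4 were therefore shared, and Itgax and Itgal each had 1 total-only summit, of 3.57 and 2.56. Itga5, an integrin gene outside this group, went the other way. It had 1 total-only region, with 14.9 in total cells and no CD11b-high summit within 1 kb.

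Over the 19 gene lists the single-list regions stood at 64 CD11b-high-only and 66 total-only beside 257 shared, each region going to the closest protein-coding gene, at most 100 kb away. Over all 19018 regions with such a gene, 16.0% were CD11b-high-only, 14.6% total-only and 69.4% shared. More CD11b-high-only than total-only regions were counted in 6 lists, fewer in 7 and the same number in 6. The interval of a list's CD11b-high-only share held 16.0% in 19 of 19 lists, and the interval of its total-only share held 14.6% in 18 of 19. The exception was a list of genes of other tissues than blood, with 1 CD11b-high-only, 3 total-only and 1 shared region. Small lists had wide intervals, such as 0.505 to 71.6% for the 5 regions of erythroid genes. Holding the share over all regions therefore does not show that a list was like all regions.

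**Figure D3:**
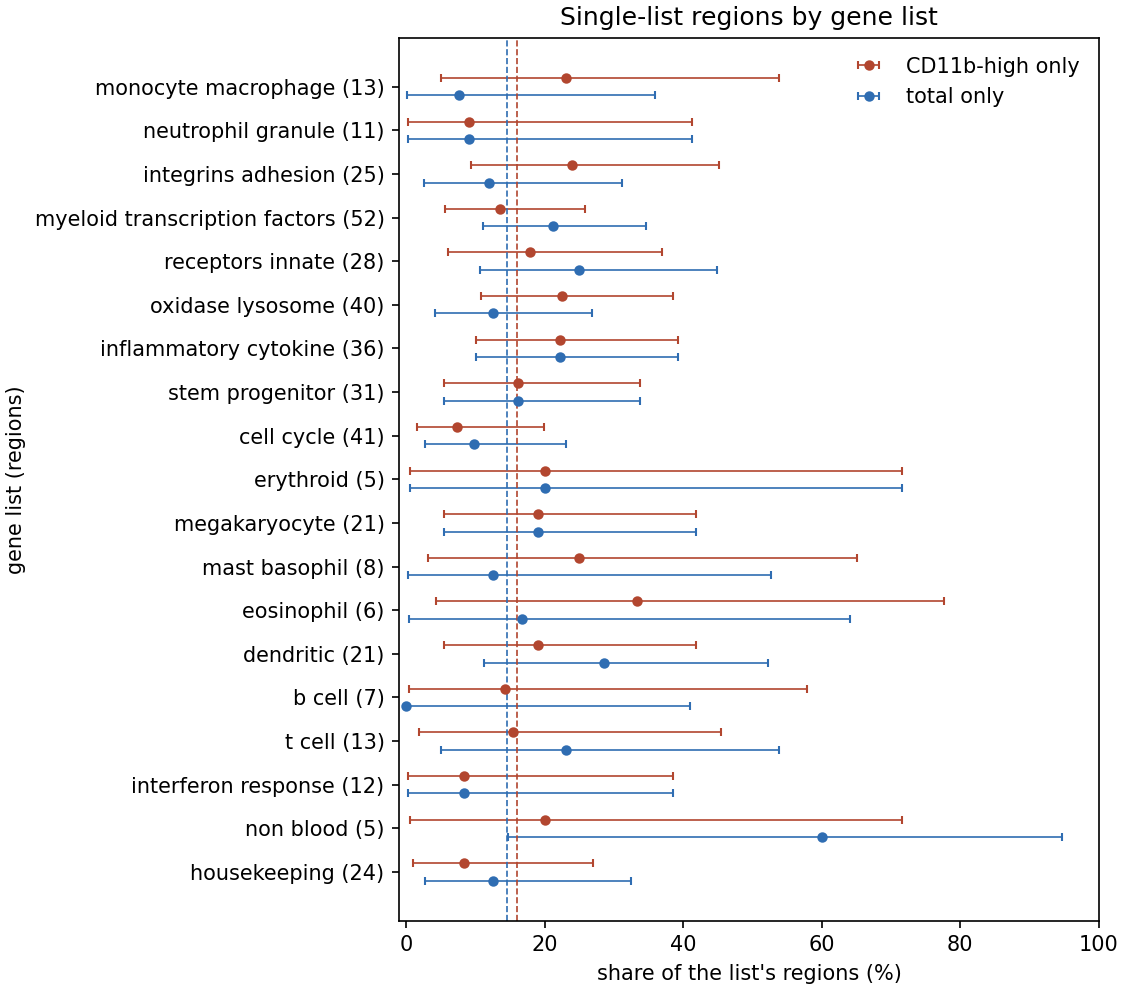
Percentage of each gene list's regions that were CD11b-high-only (red) or total-only (blue), with 95% Clopper-Pearson intervals; the number of regions stands beside the list's name and dashed lines mark 16.0% and 14.6%, the shares over all regions assigned to a gene. Each interval holds the dashed line of its own colour, except the total-only interval of the genes of other tissues than blood.

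Among monocyte and macrophage genes, 3 regions were CD11b-high-only, 1 total-only and 9 shared. At the start of Fcgr1, the gene of the high-affinity IgG receptor CD64 and a marker of monocytes, the CD11b-high list scored 19.3 and the total list 5.08 (chr3:96293812-96294112). That region scored 9.35 at day 4, 32.8 at day 8 and 12.8 at 4 days off, and had no summit at day 0 or at 8 and 12 days off. Its promoter, printed above, held GAGGAAG on the opposite strand 56 bases before the start. Ccr2, the receptor through which monocytes follow CCL2, had 2 CD11b-high-only regions; the one 3654 bp beyond the gene scored 19.3 in CD11b-high cells and 7.68 in total cells, and the other scored 10.2 with a total summit of 22.3 within 1 kb. The 1 total-only region lay 5616 bp from Ly6c2, with 8.54 in CD11b-high cells and 10.4 in total cells.

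Several genes of myeloid cells had no region in either list at this threshold. Csf1r and Csf3r, the receptors for M-CSF and G-CSF, Irf8, a factor of monocyte and dendritic cell development, and Mpo, which encodes the granule enzyme myeloperoxidase, had 0 regions at scores of 10. At any score, Csf1r had 2 CD11b-high summits (4.14 and 2.31) and 0 total summits, and Csf3r had a region 5580 bp from the gene with 9.61 in CD11b-high cells and 3.32 in total cells. Irf8 had 1 total summit of 7.97 and 0 CD11b-high summits. These scores all lay below 10, and a region without a summit was not called, which is not a measurement of closed chromatin.

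Genes of phagocytosis and its killing machinery gave 9 CD11b-high-only, 5 total-only and 26 shared regions. Tfeb, a regulator of lysosome genes, had 2 CD11b-high-only regions with 11.2 and 13.5 in CD11b-high cells and 9.42 and 7.15 in total cells. In the other direction, the start of Ctsz, which encodes the lysosomal protease cathepsin Z, scored 8.04 in CD11b-high cells and 15.5 in total cells.

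Innate receptors gave 5 CD11b-high-only, 7 total-only and 16 shared regions, and with summits of any score counted 13, 6 and 33, so the direction of this list turned with the score minimum. Fcgr4, an activating IgG receptor of myeloid cells, had 2 CD11b-high-only and 1 total-only region. One CD11b-high-only region scored 12.0 in CD11b-high cells and 4.00 in total cells, and the others formed a pair within 1 kb with 13.9 in CD11b-high cells and 17.4 in total cells. A region 48 bp inside one end of Tlr6, a receptor for bacterial lipopeptides, scored 6.22 in CD11b-high cells and 17.9 in total cells; it also lay 48 bp before the start of the neighbouring Fam114a1. Tyrobp, whose product DAP12 relays signals of myeloid receptors, had 2 total-only regions with 7.09 and 9.66 in CD11b-high cells and 10.0 and 12.1 in total cells. At Clec12a, which encodes an inhibitory C-type lectin receptor of myeloid cells, chr6:129365946-129366246 scored 15.5 in total cells of day 12 and had no CD11b-high summit within 1 kb. The other 6 lists scored between 13.5 and 16.3 there, so the CD11b-high list was the 1 list of 8 without a summit.

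Inflammatory genes gave 8 CD11b-high-only, 8 total-only and 20 shared regions. Nlrp3, the sensor of the inflammasome, had 0 CD11b-high-only, 2 total-only and 1 shared region. The region at the Nlrp3 start printed above scored 3.90 in CD11b-high cells and 12.9 in total cells, and it held a summit in the other 6 lists, from 9.95 at 12 days off to 26.3 at 4 days off. Tnfaip3, which encodes the NF-κB inhibitor A20, had 2 CD11b-high-only regions with 13.2 and 13.0 in CD11b-high cells and 9.26 and 6.84 in total cells. Its 1 total-only region scored 3.73 in CD11b-high cells and 11.0 in total cells. Nfkbia, which encodes another inhibitor of NF-κB, had a CD11b-high-only region 23655 bp from the gene with 18.0 in CD11b-high cells and 7.65 in total cells.

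Transcription factors of myeloid cells gave 7 CD11b-high-only, 11 total-only and 34 shared regions. Spi1 had 2 shared regions, with 17.1 and 25.7 in CD11b-high cells and 21.8 and 17.8 in total cells. Cebpa, the factor of granulocyte and monocyte progenitors, had 1 shared region at its start with 27.0 in CD11b-high cells and 16.5 in total cells. The start of Junb, an AP-1 subunit, scored 19.0 in CD11b-high cells and 8.83 in total cells, and it was at or above 12.0 in the other 6 lists. Runx1, a factor of blood stem cells and of leukaemia, had 1 CD11b-high-only, 2 total-only and 5 shared regions. The total-only region at one of its starts (chr16:92697220-92697520) scored 8.55 in CD11b-high cells and 16.0 in total cells.

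Stem and progenitor genes gave 5 CD11b-high-only, 5 total-only and 21 shared regions, and cell cycle genes 3, 4 and 34. Kit, the receptor for stem cell factor, had a shared region at its start with 19.3 in CD11b-high cells and 18.4 in total cells. Kit also had a shared region 818 bp inside the gene, with 17.2 in CD11b-high cells and 26.1 in total cells. Its 1 total-only region, 74066 bp beyond the gene, scored 7.04 in CD11b-high cells and 13.8 in total cells. Myc had 2 shared regions, with 15.0 and 13.5 in CD11b-high cells and 18.1 and 11.6 in total cells. Cd34 had 1 CD11b-high-only, 2 total-only and 4 shared regions, and 1 region of each single-list class belonged to a pair with 31.8 in CD11b-high cells and 31.5 in total cells. Cdk6, a kinase of the G1 phase, had 3 CD11b-high-only, 1 total-only and 8 shared regions. The CD11b-high-only regions with 13.3 (67646 bp from the gene) and 12.9 (inside it) in CD11b-high cells held total summits of 6.82 and 9.36. The one with 13.2 had a total summit of 19.6 within 1 kb. The total-only region scored 9.98 in CD11b-high cells and 18.4 in total cells.

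Genes of other blood lineages had single-list regions in both directions. Counted as CD11b-high-only, total-only and shared, dendritic cell genes had 4, 6 and 11, megakaryocyte genes 4, 4 and 13, mast cell and basophil genes 2, 1 and 5, and eosinophil genes 2, 1 and 3. Neutrophil granule genes had 1, 1 and 9, erythroid genes 1, 1 and 3, B-cell genes 1, 0 and 6, T-cell genes 2, 3 and 8, and interferon response genes 1, 1 and 10. Integrin and adhesion genes, which include the β2 integrins above, had 6, 3 and 16, and housekeeping genes 2, 3 and 19. With summits of any score counted, cell cycle genes had 12, 9 and 51, eosinophil genes 1, 2 and 13, B-cell genes 5, 7 and 9, T-cell genes 6, 4 and 24 and housekeeping genes 10, 4 and 32, and in these 5 lists the order of the single-list classes turned. At H2-Ab1, an MHC class II chain, a region 94 bp from one end of the gene scored 18.0 in CD11b-high cells and 5.27 in total cells, and a region 5462 bp from the gene scored 6.62 in CD11b-high cells and 12.7 in total cells. H2-Aa, the partner chain, also had 1 region of each class, the CD11b-high-only one with 11.6 in CD11b-high cells and 3.96 in total cells and the total-only one with 9.50 and 10.9. Ccr3, the eotaxin receptor, had a CD11b-high-only region 22031 bp from the gene with 22.5 in CD11b-high cells and 9.05 in total cells. Both CD11b-high-only regions assigned to T-cell genes had no total summit within 1 kb. One lay 37581 bp from Bcl11b, with 11.0, and the other 49772 bp from Cd28, with 10.8. The 3 total-only regions near T-cell genes lay at Themis, a T-cell signalling gene, with 4.27 and 9.66 in CD11b-high cells and 13.3 and 11.2 in total cells, and 45 bp from one end of Tcf7, a T-cell transcription factor, with 9.58 in CD11b-high cells and 11.7 in total cells.

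By gene, 11249 genes had at least 1 region, and 6844 had shared regions only. CD11b-high-only regions without total-only ones were found at 1929 genes, the reverse at 1771 and both kinds at 705. The difference was 0 at 7353 genes. Gse1, which encodes a coiled-coil protein found in histone deacetylase complexes, had 6 CD11b-high-only, 0 total-only and 6 shared regions. The 6 scored 10.4 to 17.7 in CD11b-high cells; 3 held a total summit, of 4.46 to 8.28, 2 had one of 7.71 or 8.63 within 1 kb only and 1 had none within 1 kb. The promoter of Gse1 printed above, in which the CD11b-high summit lay 88 bases before the start with a score of 12.0, held none of the 5 motifs searched. Zfp516, a zinc finger gene, had 6, 0 and 4 regions, and all 6 CD11b-high-only ones held a total summit, of 3.94 to 9.05.

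Next in that order came Lpar1, a receptor for lysophosphatidic acid (4 CD11b-high-only, 0 total-only and 1 shared region), Ralgps2 (4, 1 and 0), Nedd4l, a ubiquitin ligase (4, 1 and 4), Pls3, an actin-bundling plastin (4, 1 and 3), Runx2, a RUNX factor (4, 1 and 2), and Gas7 (4, 1 and 3). Ilrun (3, 0 and 1), Ipo5, a nuclear import receptor (3, 0 and 2), Ybx3 (3, 0 and 2) and Apbb1ip (3, 0 and 1) completed the 12. Apbb1ip encodes RIAM, which links Rap1 to talin and so to integrins; its regions scored 18.3, 10.0 and 13.1 in CD11b-high cells, and the total list scored 9.50 and 5.37 in the first and last, with a summit of 28.3 within 1 kb of the other. Counted at any score, the direction turned at Pls3 (0, 2 and 11), Runx2 (2, 3 and 10) and Gas7 (1, 3 and 9). It also turned at Ilrun (1, 2 and 3), and Gse1 (3, 3 and 26) and Nedd4l (6, 6 and 8) came out level. The rest of these 12 genes kept their direction. At the far ends, 28 genes had a difference of 3, 1 of 4 and 2 of 6 regions towards CD11b-high cells, and 15 had 3 and 2 had 4 towards total cells.

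Towards total cells, Nav2 had 0 CD11b-high-only, 4 total-only and 1 shared region, and Sema4d 0, 4 and 0. Sema4d encodes a semaphorin that acts on immune cells and axons, and its 4 regions scored 5.60, 8.63, 6.71 and 3.25 in CD11b-high cells and 12.3, 10.1, 12.1 and 13.6 in total cells. The last lies at the promoter printed above, which held none of the 5 motifs; the CD11b-high summit lay 159 bases and the total summit 122 bases before the start. Both Smad3, which carries TGF-β signals to the nucleus (0, 3 and 6), and Smad7, which inhibits them (0, 3 and 1), were among the 12. Within Smad3, chr9:63690551-63690851 scored 4.64 in CD11b-high cells and 28.7 in total cells; it had no summit at day 0 and scored 14.2 at day 4 and 32.5 at day 8. After withdrawal it scored 50.7, 12.9 and 4.91 at 4, 8 and 12 days. The others were Plxnc1, a semaphorin receptor (0, 3 and 3), Zfhx3 (2, 5 and 5), Utrn, which encodes utrophin (1, 4 and 3), Svop (0, 3 and 0), Focad (0, 3 and 1), Spring1 (0, 3 and 0), Cxxc5 (0, 3 and 3) and Ttll10 (0, 3 and 0). On this side the direction at any score turned at Zfhx3 (8, 5 and 18), Plxnc1 (3, 2 and 7) and Smad7 (2, 1 and 5). Nav2 (2, 2 and 12) and Utrn (2, 2 and 12) came out level, and the rest of these 12 genes kept their direction.

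The 182 and 158 regions with no summit of the other list within 1 kb had low scores, with medians of 11.2 in CD11b-high cells and 11.1 in total cells. The highest CD11b-high scores among them lay in or nearest to Spp2 (21.2), Ilrun (21.1), Ralgps2 (17.5), Mmrn2 (17.5), Ctsc (16.2), Cfap46 (16.2), Gli2 (15.8) and Cdkn1c (15.7). The highest total scores lay in or nearest to Pdlim5 (19.8), Septin9 (17.6), Armcx2 (17.0), Lama4 (16.5), Focad (16.4), Ccdc130 (15.8), Eif4ebp1 (15.8) and Clec12a (15.5). Ctsc encodes cathepsin C, which activates the serine proteases of neutrophil granules; its region, 22998 bp from the gene, was also called at day 4 (4.30) and day 8 (14.2) and in none of the lists off Dox. Cdkn1c encodes the cell cycle inhibitor p57, and its region was called in the other 6 lists with scores from 6.35 to 15.3.

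Single-list regions lay near a gene end less often than shared ones, by like shares in both classes. Within 1 kb of a gene end were 29.1% of CD11b-high-only regions (27.6 to 30.7%), 28.5% of total-only regions (26.8 to 30.1%) and 49.9% of shared regions (49.0 to 50.7%). Inside a gene, farther from its ends, were 37.3%, 37.9% and 27.5%, and outside genes but within 100 kb 27.5%, 27.8% and 18.7%. Off chromosome 18, which the promoter set lacks, 27.4% of CD11b-high-only regions (25.9 to 29.1%) lay within 1 kb of a transcription start. The share was 24.5% for total-only regions (23.0 to 26.1%) and 46.6% for shared ones. The location moved with the score. Among regions with scores of 10 to 15 the share near a gene end was 24.4% of CD11b-high-only regions and 23.3% of total-only regions, against 29.9% of shared regions with that CD11b-high score and 32.9% of shared regions with that total score. Regions with no summit of the other list within 1 kb lay near a gene end in 15 of 182 cases in CD11b-high cells (8.24%, 4.69 to 13.2%) and 21 of 158 in total cells (13.3%, 8.42 to 19.6%).

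**Figure D4:**
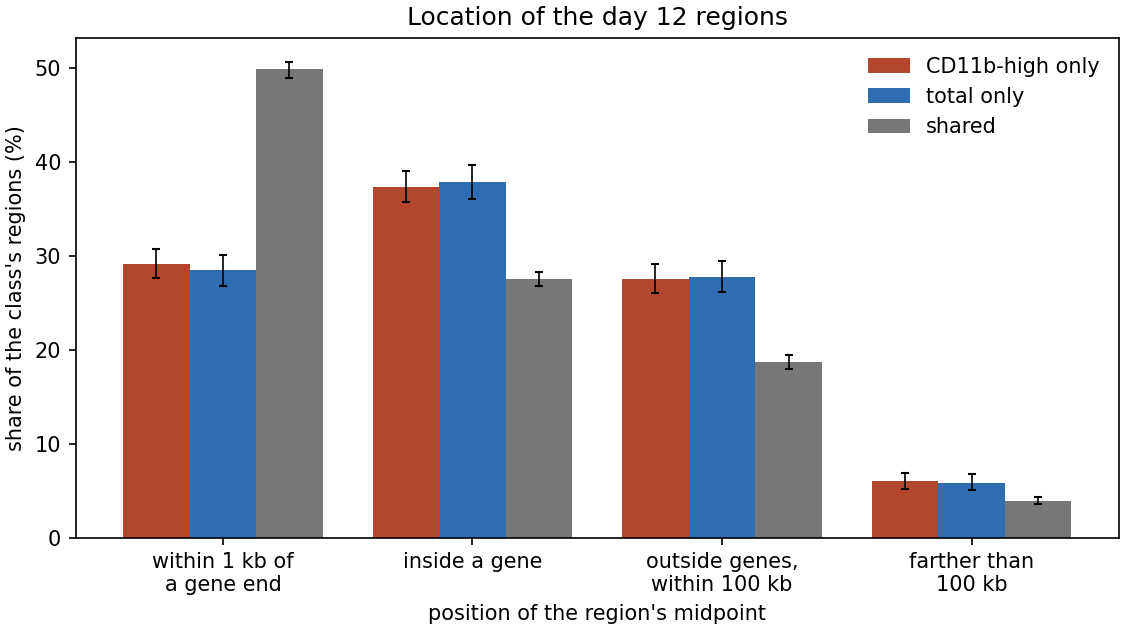
Percentage of CD11b-high-only (red), total-only (blue) and shared (grey) regions by the position of the region's midpoint, with 95% Clopper-Pearson intervals. The intervals of the red and blue bars overlap at every position, while the grey bar is at 49.9% within 1 kb of a gene end and below both of them elsewhere.

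The other 6 libraries, which did not enter the classes, had summits at both single-list classes in like shares. CD11b-high-only regions held a summit of any score at day 0 in 65.0%, at day 4 in 72.9% and at day 8 in 85.2% of cases, and total-only regions in 64.0%, 70.6% and 84.9%. Off Dox the shares were 78.6%, 73.5% and 63.5% of CD11b-high-only regions at 4, 8 and 12 days, and 79.7%, 72.7% and 62.6% of total-only regions. The intervals of the 2 classes overlapped in each of the 6 libraries. Shared regions were called in 88.5% at day 0 and in up to 96.3% at day 8. Their median scores were higher (21.7 and 20.7 against 12.5), and their median length was 324 bp against 301 bp. The day 0 share moved with the score minimum, from 35.7% of CD11b-high-only regions with none to 81.6% at 20. Contrasts with shared regions were not matched for score or length. List lengths differ between libraries, so the shares are read between classes within a library and not between libraries.

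Few single-list regions lacked a summit in all of the other 6 lists. In none of the other 6 lists were 154 CD11b-high-only regions (4.77%) and 148 total-only regions (5.0%), against 76 shared regions (0.553%). A summit counted only inside the region, so these are not places shown to be open at day 12 alone. The Apbb1ip region with 10.0 in CD11b-high cells was one of them, though a total summit of 28.3 lay within 1 kb. In all 6 were 43.4% and 42.5%, against 78.4% of shared regions. A call at day 8 without one at day 0 was found for 24.6% of CD11b-high-only regions (23.1 to 26.1%) and 25.4% of total-only regions (23.9 to 27.1%), against 9.70% of shared regions. The shares of shared regions given here were again not matched for score or length. Of the regions with no summit of the other list within 1 kb, 1 of 182 in CD11b-high cells and 2 of 158 in total cells were in none of the 6 lists. Nearly all of the 154 and 148 regions thus had a summit of the other day 12 list within 1 kb.

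**Figure D5:**
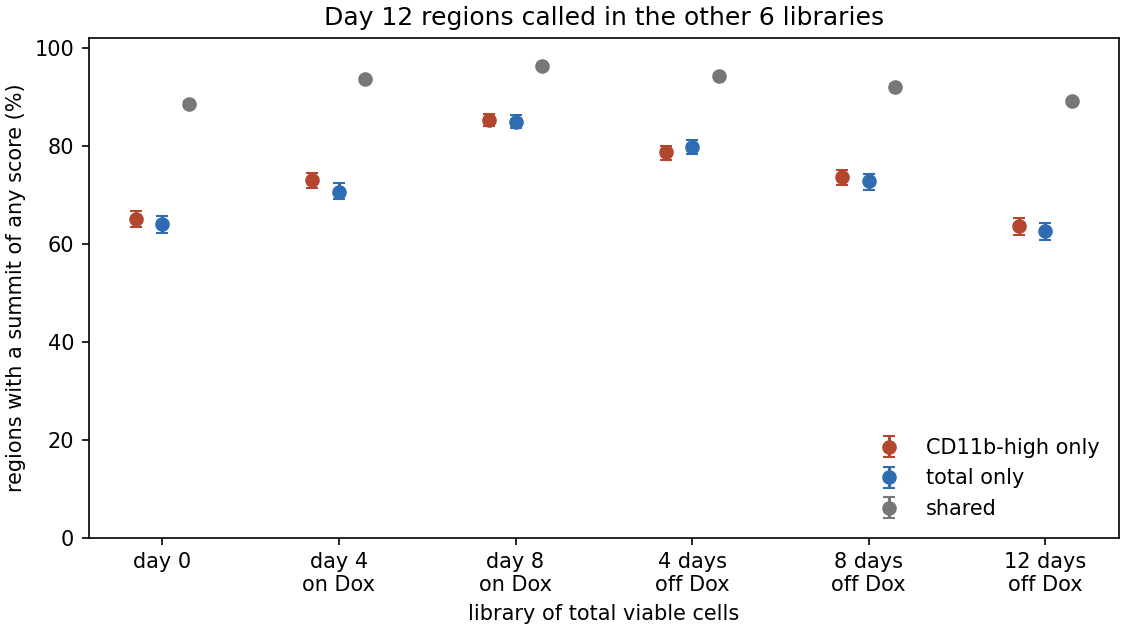
Percentage of CD11b-high-only (red), total-only (blue) and shared (grey) day 12 regions that held a summit of any score in each of the other 6 libraries, with 95% Clopper-Pearson intervals. The red and blue points lie together in every library, from 65.0% and 64.0% at day 0 to 85.2% and 84.9% at day 8, and the grey points lie above them.

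Promoters beside CD11b-high-only and total-only summits held the searched motifs in like shares. The letters GAGGAAG for ETS, TTGCNNAA for C/EBP, TGANTCA for AP-1, TGTGGTT for RUNX and AGATAA for GATA factors were searched on both strands of 21263 RefSeq promoters, with overlaps between motifs allowed. Promoters were classed by the summits of at least 10 that lay inside the 300 bases themselves. These classes are not the region classes, since the other list's summit can lie just outside the 300 bases. At Ilrun the promoter held a total summit only (19.7), in a shared region with 24.8 in CD11b-high cells. Shared regions are thus mixed into both single-list promoter classes. The ETS letters were in 11.9% of 935 promoters with a CD11b-high summit only (9.87 to 14.1%), 13.0% of 803 with a total summit only (10.7 to 15.5%), 12.6% of 5259 with summits of both and 13.6% of all. The C/EBP letters were in 8.34%, 8.72% and 7.40% of them, against 10.2% of all, and the AP-1 letters in 4.60%, 3.74% and 3.75%, against 6.99% of all. The RUNX letters were in 3.32%, 3.74% and 3.44%, against 4.71% of all, and the GATA letters in 5.13%, 6.23% and 4.60%, against 9.65% of all. For each motif the intervals of promoters with a CD11b-high summit only and of those with a total summit only overlapped.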

How the data were processed

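ATAC-seq libraries of AML246 cells were compared, 1 per group. Per the submitters' processing notes, the authors used MACS2 and Picard 2.14.0 with build mm10; neither aligner, MACS2 version nor depth is given in the sources used here. The labels' extraction protocol also mentions ChIP, while the title, design and library preparation name ATAC-seq. The deposited files hold summits called per library, with 1 score each. The authors' deposited score was taken for −log10 of a p-value or of a q-value, since all 8 lists start near a p threshold of 0.05; the sources used here do not say which. A score moves with depth, so scores of different lists are set side by side as each list's own value, with no ratio or test. Summits on other contigs (85 in the CD11b-high list, 88 in the total list) were left out.

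Regions were formed and classed in Python 3.11.15 with NumPy 2.4.6, and intervals with SciPy 1.17.1 (exact Clopper-Pearson, 95%); the classing was tested on simulated lists. Each region went to the nearest of 21887 protein-coding genes of a RefSeq table for GRCm38.p6 within 100 kb. Strand and exons are missing from it, so a gene end is either end, location is that of the midpoint, and exons, introns and UTRs were not analysed here. Promoter sequences covered 17492 genes, none on chromosome 18. Of 324 genes in 19 lists, 322 matched. The regions, the lists and the tests were chosen with earlier results of these data known. Genes named were the 12 with the most and the 12 with the fewest CD11b-high-only relative to total-only regions, those of the 8 highest-scored regions of either single-list class (over all, and without a summit of the other list within 1 kb), up to 4 genes per list, and Itgam, Itgb2, Itgax, Itgal, Spi1, Csf1r, Csf3r, Kit, Cd34, Cebpa, Cebpb, Irf8, Myc and Mpo; not all are printed, and 1 gene named by this rule is not reported here. The rule also named the 6 shared regions with the highest scores. Alternatives were the score minimum, the extension, equal list lengths, a stricter rule on the other list and a gene limit of 10 kb, with a band of low scores added after the data were seen.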

Additional observations from a re-analysis of the deposited data

How the results depend on the processing

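Values are given for CD11b-high-only, total-only and, where used, shared regions. With no score minimum, a minimum of 5 and a minimum of 20 the counts were 8025, 6908 and 27658, then 6395, 5532 and 22758, then 1832, 1298 and 6158. Under the rule that no summit of the other list lay within 1 kb they were 182 and 158. With equal numbers of summits they were 3068, 3061 and 13637, and equal list lengths nearly impose such near-equal single-list counts. The location and day 0 shares then stayed within their 95% intervals. The percentage within 1 kb of a gene end was 17.7, 20.3 and 33.9 with no minimum, 19.0, 20.9 and 38.0 with a minimum of 5, and 49.0, 45.5 and 65.3 with a minimum of 20. It was 35.0 and 34.5 with an extension of 75 bp, 22.9 and 21.5 with 250 bp, and 8.24 and 13.3 under the 1 kb rule. At scores of 10 to 15, a band chosen after seeing the data, it was 24.4, 23.3 and 29.9. The percentage with a summit at day 0 was 35.7 and 35.6, 45.4 and 46.3, and 81.6 and 81.0 with those 3 minimums, and 54.7 and 53.0, then 71.9 and 71.5, with extensions of 75 and 250 bp. Over the gene lists the CD11b-high-only minus total-only difference was -2, against 30 with no minimum and 1 under the 1 kb rule. With no minimum the difference changed sign in the lists of innate receptors (7), cell cycle (3), eosinophil (-1), B-cell (-2), T-cell (2) and housekeeping genes (6), and under the 1 kb rule in those of integrins (-1) and T-cell genes (2). The cause was not tested. Of the 13 lists whose single-list counts differed, 6 thus turned with no minimum, 6 kept their direction and that of integrins came to 0. No paired analysis was possible because each group held 1 library, and no replicate could be left out.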

Other observations

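By chromosome, CD11b-high-only regions made up 52.2% of all single-list regions (95% Clopper-Pearson interval 50.9 to 53.4%). This share comes from lists of unequal length; at equal length the classes held 3068 and 3061 regions. Chromosomes 18 (57.2%, 50.2 to 64.0%) and 2 (56.3%, 51.3 to 61.3%) lay above that share and chromosome 5 below it (47.2%, 42.3 to 52.0%). The intervals of chromosomes 18 and 2 held the share over all chromosomes, while that of chromosome 5 ended below it; over 21 chromosomes no interval was adjusted for their number.

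The 6 shared regions with the highest scores did not lie at myeloid genes. One lay 29504 bp from Rpusd4 (235 in CD11b-high cells and 238 in total cells of day 12), one inside Chl1 (194 and 198), one inside Filip1l (140 and 129), and the other 3 had no protein-coding gene within 100 kb. Each of the 6 was called in all 8 libraries. No list of artefact-prone sites was used here to filter regions, and whether these 6 are open regulatory regions was not tested.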
